A study of Caenorhabditis elegans with 2 samples.

Results

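The genes examined here were 34 genes of the Caenorhabditis elegans cell cycle and of DNA replication, taken by name from the WBcel235 gene annotation out of 19973 protein-coding genes on the 6 nuclear chromosomes. They comprised 2 cyclin-dependent kinases, 6 cyclins, 4 regulators of those kinases, the 6 subunits of the replicative helicase, 7 genes of origin recognition and licensing, 3 genes of the fork clamp and of deoxynucleotide supply, 3 mitotic kinases and 3 genes of the centromere and kinetochore. All 34 were found, and none lay on the X chromosome. The choice was by function and took no measured value as a criterion, although earlier results of these data were known when it was made. Chromatin immunoprecipitation with sequencing (ChIP-seq) had been carried out with an antibody against GFP on whole hermaphrodites of strain RW10325, which carries an insertion that expresses MES-4 fused at its C terminus to GFP and FLAG tags. The animals were young adults, collected 63 h after they left the arrest of starved L1 larvae obtained by bleaching. There was 1 group with 2 biological replicates, so the study held no contrast between conditions. The labels give no driving promoter for the tagged gene and no state of the endogenous mes-4 copy, and they name a possible control experiment that was not analysed here.

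MES-4 methylates lysine on histone H3, is known to sit on autosomal genes expressed in the germ line, and is needed for germ cells to survive. In adult hermaphrodites the dividing cells lie in the germ line and in the embryos it produces, while the somatic cells no longer divide, so replication and mitosis take place mainly there. Origins are licensed when the origin recognition complex, CDC-6 and CDT-1 load the ring-shaped MCM helicase, cyclin-dependent kinases then start replication, and B-type cyclins, Polo and Aurora kinases and the kinetochore carry the cell through mitosis. The lists hold no expression values, so the labelled stage and tissue could not be checked against marker genes. In whole animals, fewer cells of a type and less signal per cell cannot be told apart.

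The measurements were lists of peaks. A peak has a summit, a signal value given by the authors and a −log10 q value, and a gene was counted as marked by any summit between its annotated ends or within 500 bp upstream of its 5' end. Of the 4 lists on the ce11 build (WBcel235), the reproducible one held 440 nuclear peaks, and all 440 had q under 0.05. The relaxed lists were deposited as peaks together with background, with 12008 nuclear entries for the pooled replicates, 15372 for replicate 1 and 14947 for replicate 2, of which 7.38%, 4.87% and 6.64% had q under 0.05. Most marks described below therefore rest on entries that would not pass such a threshold alone. The scale of the signal differed between lists, with medians of 35.1 in the pooled list, 19.6 in replicate 1 and 18.6 in replicate 2, so peaks are compared by rank within a list, where rank 1 is the highest nuclear signal. Read depth is unknown from these lists. Of the reproducible peaks, 290 (65.9%) had their summit within 220 bp of a tRNA, snRNA or snoRNA gene, compared with 6.09% of the pooled list, and the small RNA genes near each peak are therefore given with the results.

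The strictest list marked few genes of any kind, whereas the longer lists marked most of the cell cycle genes. The reproducible list marked 1 of the 34 genes (2.94%), cye-1, beside 1.45% of all protein-coding genes. The pooled list marked 23 of 34 (67.6%), beside 34.3% of all genes and 35% of autosomal genes. Replicate 1 marked 25 (73.5%, against 40.6% of all genes) and replicate 2 marked 27 (79.4%, against 39.5%). Both replicates marked 21 of the 34 (61.8%, against 26.1%), replicate 1 alone 4 (11.8%, against 14.6%), replicate 2 alone 6 (17.6%, against 13.5%) and neither 3 (8.82%, against 45.9%). A share above the background was thus seen in each relaxed list and in each replicate. Shares by 1 replicate alone lay near the background. No test was run on these counts, since the genes were chosen with earlier results of these data known and neighbouring genes can share a peak.

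Counts at the top of the pooled list were small and grew as it was lengthened. Among its 1000 strongest nuclear peaks, 2 of the 34 genes were marked (5.88%, against 3.59% of all genes). With 2000 peaks the count was 9 (26.5%, against 7.59%), with 4000 peaks 15 (44.1%, against 14.8%) and with 8000 peaks 21 (61.8%, against 25.9%). Only cye-1 was marked by a pooled peak with q under 0.05, which is 2.94% of the 34 genes beside 3.14% of all genes. The shares marked as the list is lengthened also rose in each replicate, as the curves of marked genes show.

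**Figure D1:**
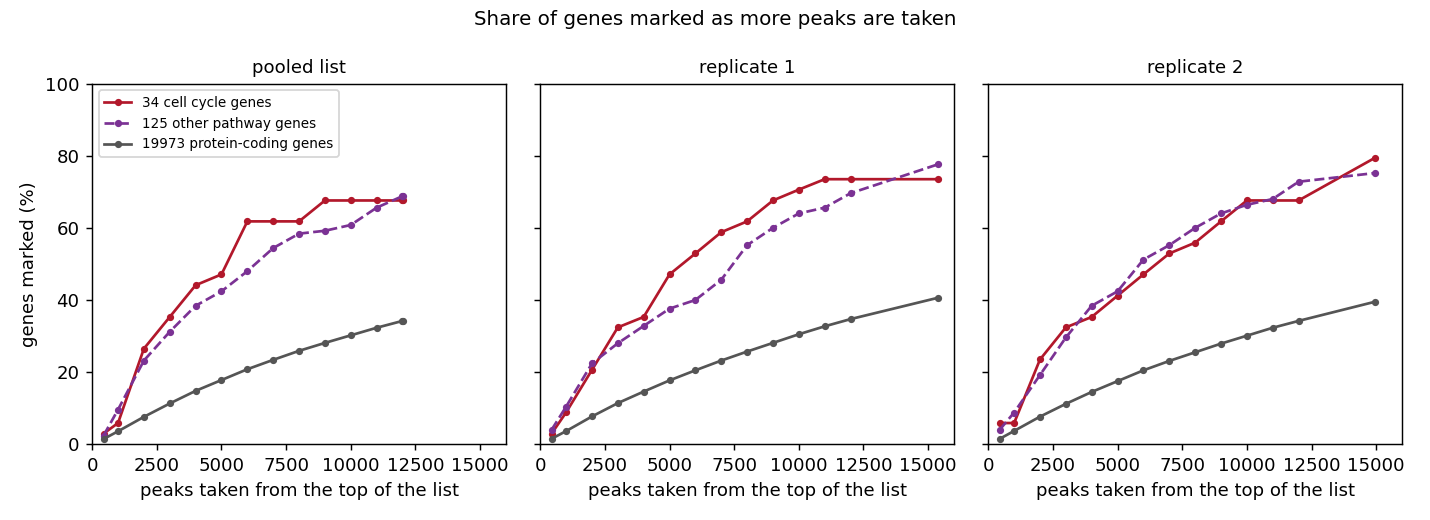
Percent of genes marked (vertical axis) against the number of nuclear peaks taken from the top of the list by signal (horizontal axis), for the pooled list, replicate 1 and replicate 2, with the 34 cell cycle genes as a solid red line, 125 other genes of the same processes as a dashed purple line and 19973 protein-coding genes in grey. Both sets of cell cycle genes run above the grey line. In the pooled list they stand apart at 6000 peaks, with 61.8% of the 34 genes and 48.0% of the 125. They end there at 67.6% and 68.8%, where all genes end at 34.3%.

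The B-type cyclins, which activate CDK-1 for mitosis, divided into a marked and a barely marked pair. The highest ranked of them was cyb-3, whose product is needed for chromosome segregation. Its pooled peak ranked 1479 (signal 51.4), with rank 2869 (signal 25.5) in replicate 1 and rank 2020 (signal 26.3) in replicate 2. All 3 summits fell within 100 bp of each other in a coding exon, at V:15395989 in the pooled list. At cyb-1 the summits also lay in a coding exon, but those of the replicates were 227 bp apart. Its peak ranked 2724 (signal 43.4) in the pooled list, 4108 in replicate 1 and 2369 in replicate 2. The paralogues cyb-2.1 and cyb-2.2, which share 90.1% of aligned coding bases, had no pooled peak and none in replicate 1. In replicate 2 each had 1 weak peak in a coding exon, of rank 6747 (signal 19.1) at cyb-2.1 and rank 13770 (signal 15.2) at cyb-2.2. How the authors placed reads that match both near copies is not given in the sources used here, so the values of this pair are uncertain. The stretch around the cyb-3 summits is shown because it was among the 8 highest ranked genes and the pooled list and both replicates placed a summit in it (ce11, V:15395949-15396128, plus strand, from the RefSeq genome of WBcel235). Capitals mark the bases from the pooled to the replicate 1 summit.
cyb-3: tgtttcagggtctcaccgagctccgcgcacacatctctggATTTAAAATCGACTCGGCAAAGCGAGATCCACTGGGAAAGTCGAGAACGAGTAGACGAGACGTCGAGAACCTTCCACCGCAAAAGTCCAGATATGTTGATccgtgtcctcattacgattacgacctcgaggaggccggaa

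Cyclin E, encoded by cye-1, is the partner of CDK-2 at the start of S phase, and its gene carried the only reproducible peak among the 34. The peak lay at I:6781655-6782094 in an intron, with its summit 1076 bp from the 5' end, and ranked 216 of 440 in the reproducible list with signal 100.7 and −log10 q 2.18. In replicate 1 the overlapping peak ranked 153 (signal 58.9), and in replicate 2 it ranked 408 (signal 41.2), with summits 5 bp apart. Both replicates thus placed it among their 440 strongest peaks. The summit was 1 bp from the tRNA gene C37A2.t1, a gene of 72 bp that lies in this intron on the same strand as cye-1, so a mark of cye-1 and a mark of the tRNA gene cannot be told apart, and without peaks at small RNA genes the reproducible count fell from 1 to 0. Away from the tRNA gene, cye-1 had a further pooled peak 386 bp from its 5' end in an intron, of rank 6532 (signal 34.2), which overlapped a peak of rank 1497 in replicate 2 and none in replicate 1. Cyclin A, encoded by cya-1, had 2 weak pooled peaks of ranks 5381 and 7430, the first in a coding exon and the second in the 5' UTR, and its strongest peaks ranked 9981 in replicate 1 and 8204 in replicate 2.

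The cyclin-dependent kinases were both marked in the pooled list, beside 34.3% of all genes, though with different support. At cdk-1, the mitotic kinase, the pooled peak ranked 3261 (signal 41.4) in a coding exon 798 bp from the 5' end. Replicate 1 had an overlapping peak of rank 582 (signal 38.8), while replicate 2 had no summit in the gene or its upstream window. At cdk-2, the S-phase kinase, 2 pooled peaks of ranks 5521 (signal 35.9) and 5590 (signal 35.75) lay in an intron and 237 bp upstream. The upstream peak was the one both replicates shared, with rank 14998 in replicate 1 and 4992 in replicate 2. The intron peak overlapped a peak of replicate 1 alone, of rank 3846 (signal 23.7).

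Among the regulators of these kinases, the long CDC25 phosphatase gene cdc-25.2 held the most pooled peaks. Phosphatases of this family activate cyclin-dependent kinases by removing inhibitory phosphates. The gene is the longest of the 34 at 18457 bp and held 6 pooled peaks, all with summits in introns. Those of ranks 1372 and 11143 overlapped each other, as did those of ranks 4694 and 10687. The strongest ranked 1372 (signal 52.45), with overlapping peaks of rank 1088 (signal 32.5) in replicate 1 and 7720 (signal 18.4) in replicate 2, and the next ranked 2232 (signal 45.7), with ranks 2055 and 11908. Replicate 1 ranked both higher than replicate 2 did. Replicate 2 placed its own summit at the strongest site in a coding exon, at the last of the capitals below. The related cdc-25.1, which acts in germline proliferation, had no summit in any of the 4 lists. At wee-1.3, the kinase gene that opposes CDC25 and holds oocytes in prophase, a single pooled peak of rank 5363 (signal 36.15) lay 383 bp upstream, with peaks of rank 6687 in replicate 1 and 8670 in replicate 2. The inhibitor gene cki-1 had a replicate 1 peak alone, 114 bp upstream, of rank 8777 (signal 18.9). The stretch around the strongest cdc-25.2 site is printed as one of the 8 highest ranked (ce11, V:1582683-1582868, plus strand, RefSeq genome), with capitals from the pooled to the replicate 2 summit.
cdc-25.2: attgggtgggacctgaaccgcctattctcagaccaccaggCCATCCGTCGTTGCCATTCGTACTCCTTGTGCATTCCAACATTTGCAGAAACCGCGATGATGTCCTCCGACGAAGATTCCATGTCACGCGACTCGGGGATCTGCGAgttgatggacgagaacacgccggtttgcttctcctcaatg

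Of the 6 subunit genes of the replicative helicase, 5 had pooled peaks, beside 34.3% of all genes. The same count, though not the same genes, was marked in both replicates, beside 26.1% of all genes. At mcm-7 the pooled peak ranked 1106 (signal 55.8, −log10 q 1.00), with rank 2165 (signal 27.4) in replicate 1 and overlapping rank 1774 (signal 27.3) in replicate 2. Its summit lay in a coding exon 1536 bp from the 5' end, and a second, weaker pooled peak of rank 9806 in another coding exon overlapped a replicate 2 peak of rank 1694 (signal 27.5). At mcm-5 the pooled peak ranked 2196 (signal 46.0), again in a coding exon, with its summit 2376 bp from the 5' end. It overlapped replicate 1 peaks of ranks 1247 and 2154. Overlapping replicate 2 peaks ranked 5012 at 2609 bp and 13593 (signal 15.25) at 2375 bp, so the one beside the pooled summit was weak. At mcm-2 there were 3 pooled peaks, the strongest of rank 2465 (signal 44.5) in a coding exon 405 bp from the 5' end, which ranked 8156 in replicate 1 and 3509 in replicate 2. These strongest sites all lay in coding exons rather than upstream. The mcm-7 stretch is shown because its peak was the highest of the helicase genes (ce11, V:4348662-4348808, plus strand, RefSeq genome). Capitals run from the pooled and replicate 1 summit, which are the same base, to the replicate 2 summit.
mcm-7: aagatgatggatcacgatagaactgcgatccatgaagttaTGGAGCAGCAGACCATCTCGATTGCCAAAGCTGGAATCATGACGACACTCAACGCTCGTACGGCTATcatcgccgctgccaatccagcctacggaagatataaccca

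The other helicase genes differed more between the replicates. Of the 3 pooled peaks at mcm-4, 1 lay in a coding exon (rank 1601, signal 50.1) and 1 lay 260 bp upstream (rank 1619, signal 49.9), a window that also marks the neighbouring Y39G10AR.32. The upstream peak ranked 700 (signal 36.7) in replicate 1 and 11255 (signal 16.3) in replicate 2. The exon peak ranked 10381 (signal 17.9) in replicate 1 and 1383 (signal 29.05) in replicate 2. Each replicate thus found both sites, with the order of the sites reversed. At mcm-3 the replicate 2 peak ranked 1045 (signal 31.4), replicate 1 had none, and the pooled peak ranked 8529 (signal 31.6). At mcm-6 the peaks of the replicates ranked 8940 and 9060, lay 2628 bp apart, and left no pooled peak within the window. The first also marked srxa-10 and the second R10E11.9.

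**Figure D2:**
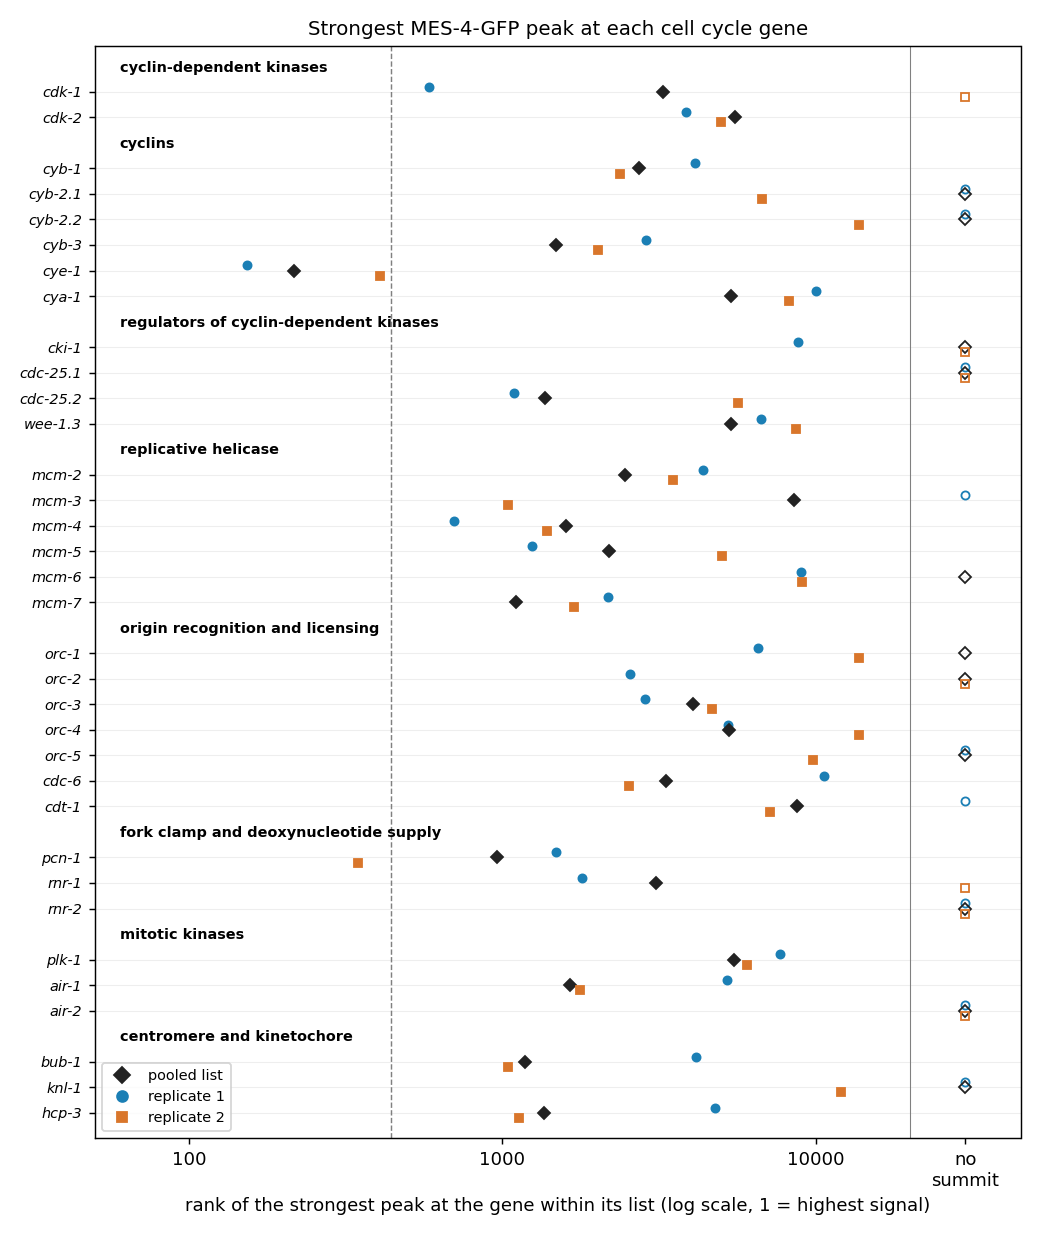
Rank of the strongest peak at each of the 34 genes (horizontal axis, log scale, rank 1 is the highest signal) in the pooled list (black diamonds), replicate 1 (blue circles) and replicate 2 (orange squares), with genes grouped by role, open symbols at the right where a list had no summit, and a dashed line at rank 440, the number of nuclear reproducible peaks. The points left of the dashed line belong to cye-1 in all 3 lists (ranks 153 to 408) and to pcn-1 in replicate 2 (rank 346).

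Genes of origin recognition and licensing were marked by weaker peaks. In the pooled list 4 of 7 were marked, beside 34.3% of all genes. Both replicates marked 4, with orc-1 in place of cdt-1, beside 26.1% of all genes. The highest rank was 3336 (signal 41.2) at cdc-6, whose product loads the helicase. That summit lay 342 bp upstream, where it also falls in the window of acin-1, and it ranked 10659 (signal 17.7) in replicate 1 and 2528 (signal 24.8) in replicate 2. At orc-3 an intron peak ranked 4061 (signal 39.1), with ranks 2857 and 4653 in the replicates, and at orc-4 a peak 67 bp inside the gene ranked 5274 (signal 36.3), with rank 5228 in replicate 1. The replicate 2 peak that overlapped the latter ranked 13784 and had its summit in the 3' UTR of the adjacent orc-1, so it marked both genes. Licensing factor gene cdt-1 had a pooled peak of rank 8684 (signal 31.4) and a replicate 2 peak of rank 7144 (signal 18.8), both in an intron, and none in replicate 1. The remaining ORC subunit genes had no pooled peak. In replicate 1, orc-2 had a coding exon peak of rank 2551 (signal 26.2), and in replicate 2, orc-5 had an intron peak of rank 9812 (signal 17.1). The strongest orc-1 peak ranked 6525 in replicate 1.

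Proliferating cell nuclear antigen, the sliding clamp of the replication fork, is encoded by pcn-1, and its gene held the second highest pooled rank of the 34 and 3 pooled peaks in all. The highest ranked 960 (signal 58.2, −log10 q 1.16) with its summit 295 bp upstream at IV:4049743. Replicate 2 had a peak there of rank 346 (signal 43.9, −log10 q 2.29), and replicate 1 had no overlapping peak. The second pooled peak, in a coding exon, ranked 1819 (signal 48.3) and overlapped a replicate 2 peak of rank 1914 alone, while the third, in an intron, ranked 3849 (signal 39.7) and overlapped a replicate 1 peak of rank 1484 (signal 29.9) alone. Both replicates therefore marked pcn-1, though no peak with its summit in the gene or its window overlapped between them. Replicate 2 peaks of ranks 1914 and 4974 did overlap replicate 1 peaks of ranks 14085 and 9041, whose summits lay outside the window. When replicate 2 alone supplied 440 peaks, the count of marked cell cycle genes at that length rose from 1 to 2 through pcn-1, beside 1.49% of all genes. The bases before pcn-1 are shown because they hold the summits of this peak and a match to an E2F site (ce11, IV:4049449-4049748, minus strand, RefSeq genome). Part of the peak lies further upstream, outside the stretch. The E2F factor controls S-phase genes in animals. Capitals mark GCGCGAAA, which reads TTTCGCGC on the other strand and lies 188 to 181 bp upstream of the annotated gene, while the summits lie near the left end.
pcn-1: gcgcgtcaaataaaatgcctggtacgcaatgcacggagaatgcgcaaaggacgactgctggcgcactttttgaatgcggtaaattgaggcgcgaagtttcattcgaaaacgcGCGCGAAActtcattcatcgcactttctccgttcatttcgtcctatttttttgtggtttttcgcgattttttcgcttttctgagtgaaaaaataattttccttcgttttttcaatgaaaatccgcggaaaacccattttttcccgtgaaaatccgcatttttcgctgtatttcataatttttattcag

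**Figure D3:**
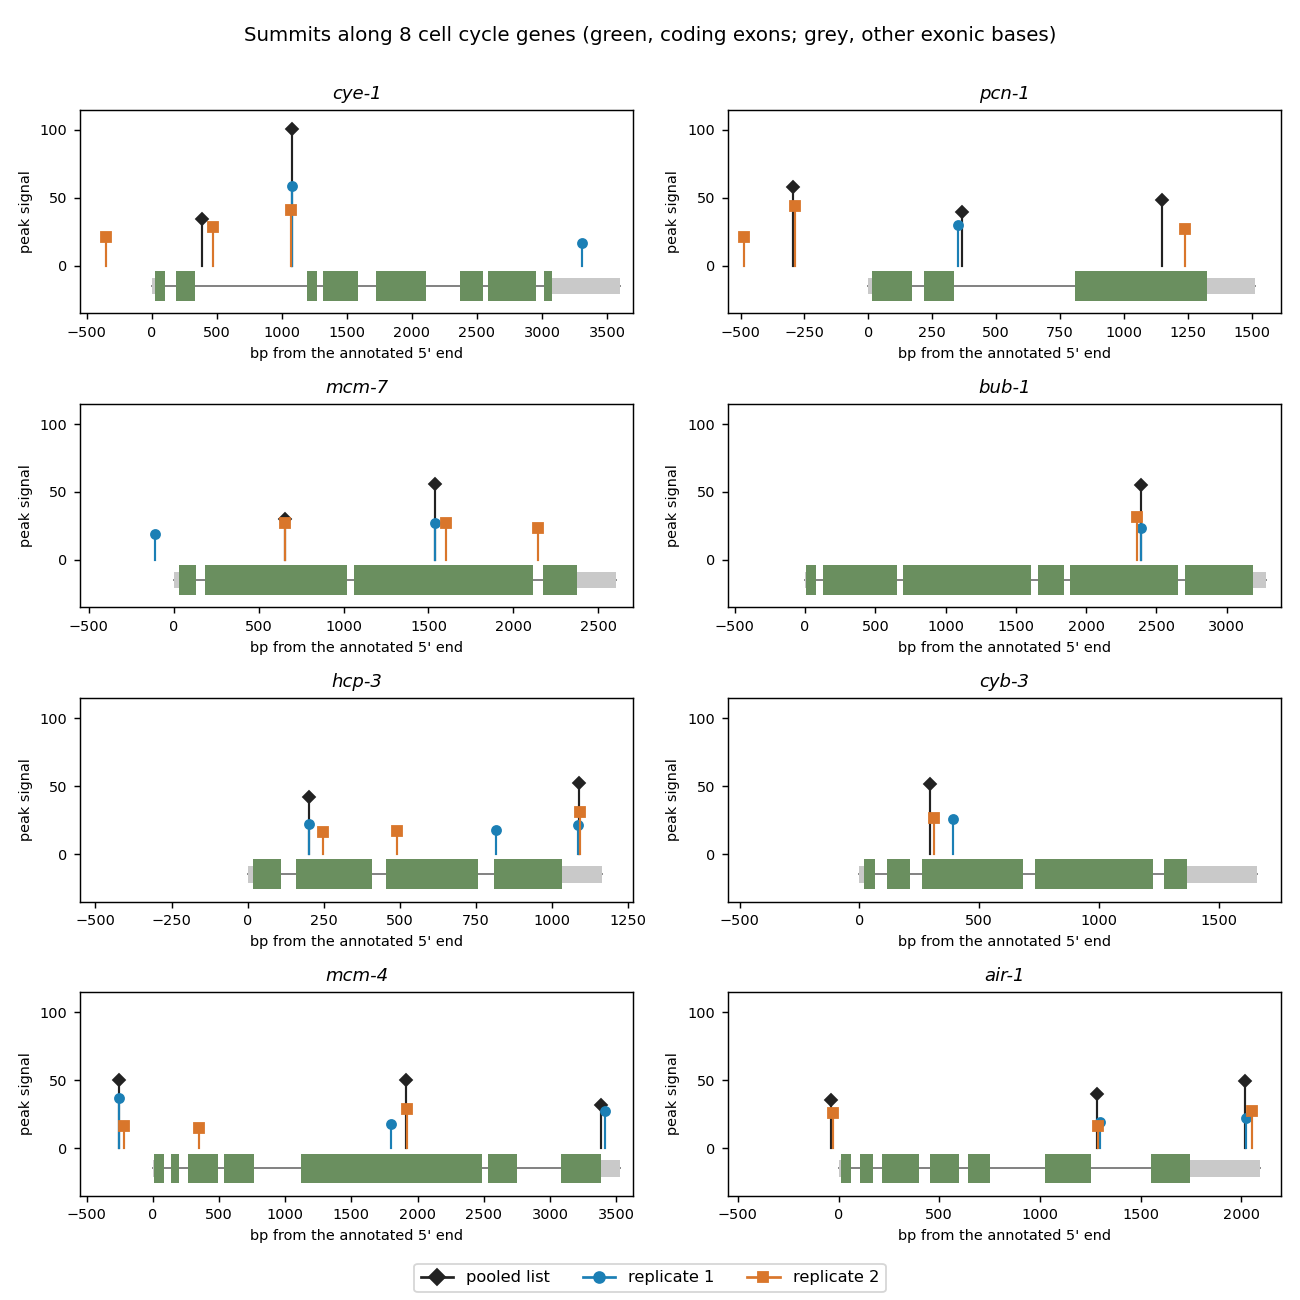
Summits along 8 cell cycle genes, those of the highest pooled ranks apart from cdc-25.2, which is too long to draw, with air-1 in its place. The horizontal axis gives the distance in bp from the annotated 5' end, boxes are coding exons (green) and other exonic bases (grey), and stem height is the peak's signal in the pooled list (black), replicate 1 (blue) and replicate 2 (orange), on scales that differ between lists. The cye-1 stems meet at the intron that holds the tRNA gene (pooled signal 100.7), the bub-1 and cyb-3 stems meet in a coding exon, and at pcn-1 the stems of the replicates stand apart.

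Ribonucleotide reductase makes deoxynucleotides, and the genes of its large and small subunits, rnr-1 and rnr-2, differed. At rnr-1 the pooled peak ranked 3099 (signal 42.0) and the replicate 1 peak 1795 (signal 28.6), while replicate 2 had none. The summit lay in a coding exon 81 bp from the snoRNA gene T23G5.7, which lies inside rnr-1 on the same strand. Without peaks at small RNA genes rnr-1 was no longer marked in the pooled list, and the pooled count was 22. For rnr-2 no list placed a summit in the gene or its upstream window. The snoRNA gene is shown in capitals with the bases as far as the summit and beyond it (ce11, III:9226758-9226974, minus strand, RefSeq genome).
T23G5.7: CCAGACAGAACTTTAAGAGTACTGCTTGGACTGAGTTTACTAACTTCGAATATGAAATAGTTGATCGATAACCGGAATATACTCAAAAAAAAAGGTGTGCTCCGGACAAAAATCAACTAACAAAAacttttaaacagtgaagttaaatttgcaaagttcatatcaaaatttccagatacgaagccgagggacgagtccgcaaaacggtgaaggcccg

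Of the mitotic kinase genes, plk-1 and air-1 were marked in both replicates, beside 26.1% of all genes, and air-2 in no list. Aurora A, which builds the spindle poles, is encoded by air-1, and its strongest pooled peak ranked 1645 (signal 49.7) with the summit in the 3' UTR. The overlapping peaks ranked 5192 (signal 21.9) in replicate 1 and 1763 (signal 27.3) in replicate 2. A second pooled peak of rank 3750 (signal 39.99) lay 6 bp from the intronic snoRNA gene K07C11.12, with ranks 7999 and 11238 in the replicates. The neighbouring snoRNA gene K07C11.11, also inside air-1, had no summit within 220 bp in any list. A further pooled peak lay 37 bp upstream (rank 5989), where it also marks cogc-6, and overlapped a replicate 2 peak of rank 2075 alone. The strongest air-1 site was thus away from the snoRNA genes, by 533 bp. At plk-1, the Polo kinase gene, the pooled peak ranked 5497 (signal 35.9) in a coding exon 101 bp from the 5' end, with overlapping ranks 9685 and 6019. The K07C11.12 gene is printed in capitals to show what the air-1 intron peak sits on, with the pooled summit in the lower-case bases before it (ce11, V:8222763-8222973, plus strand, RefSeq genome).
K07C11.12: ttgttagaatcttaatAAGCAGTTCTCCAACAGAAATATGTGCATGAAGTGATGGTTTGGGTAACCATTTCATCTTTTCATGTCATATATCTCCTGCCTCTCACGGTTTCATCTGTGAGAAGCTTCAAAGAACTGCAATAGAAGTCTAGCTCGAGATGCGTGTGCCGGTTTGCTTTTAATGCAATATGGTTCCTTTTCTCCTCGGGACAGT

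At the centromere and kinetochore, bub-1 and hcp-3 carried peaks at the same site in both replicates. The checkpoint kinase gene bub-1 had 1 peak in the pooled list and in each replicate, all within 27 bp in a coding exon, and the nearest small RNA gene was 25026 bp from the pooled summit. It ranked 1177 (signal 54.9) in the pooled list, 4162 (signal 23.2) in replicate 1 and 1040 (signal 31.5) in replicate 2. The centromeric histone gene hcp-3 had its strongest pooled peak in the 3' UTR, of rank 1354 (signal 52.65), with rank 5434 (signal 21.7) in replicate 1 and 1127 (signal 30.8) in replicate 2. A second pooled peak, 200 bp inside hcp-3, ranked 3067 (signal 42.1) and overlapped peaks of both replicates. Replicate 2 thus gave the bub-1 peak and the hcp-3 3' UTR peak a higher rank than replicate 1 did. At the second hcp-3 site replicate 1 had a peak of rank 4759. Overlapping replicate 2 peaks there ranked 10109 and 12033, the latter with its summit nearer the pooled one. The kinetochore scaffold gene knl-1 had a replicate 2 peak alone, in a coding exon, of rank 12043 (signal 15.95).

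Several genes had strong peaks just outside the window that defined a mark. The reproducible list held a peak at III:9616878-9617317 of rank 175 (signal 107.4) whose summit lay 628 bp upstream of hcp-3, 128 bp beyond the window, and which marked no other gene. Just inside the limit lay a replicate 1 peak 497 bp upstream of orc-3 (rank 11124) and a replicate 2 peak 488 bp upstream of pcn-1 (rank 4974). In the pooled list, peaks of rank 844 (signal 60.8) and 835 (signal 61.0) lay 49 bp and 269 bp downstream of rnr-2 and mcm-6, and marked C03C10.2 and ZK632.2 instead. For cdc-25.1 and air-2, which were unmarked throughout, the nearest pooled summits lay 204 bp and 282 bp downstream, at ranks 8562 and 8582. Thus, of the 3 genes without a mark in any list, rnr-2 had a high-ranked peak at its 3' end and the other 2 had weak ones. The nearest pooled summit lay 1193 bp upstream of orc-2 (rank 1438), 3099 bp upstream of cyb-2.1 and 2656 bp upstream of knl-1. Over the 34 genes the median distance to a reproducible summit was 96659 bp, and 2 genes had one within 2000 bp. Neither value was computed for all protein-coding genes, so both lack a background.

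Gene length was compared because longer genes offer more bases for a summit. The 34 genes had a median length of 2707 bp, compared with 2027 bp for all protein-coding genes. The share of all genes marked in the pooled list rose with length, from 19.0% under 1000 bp to 57.5% at 4000 bp or more. Within each class above 1000 bp the cell cycle genes were marked more often than all genes, with 5 of 10 from 1000 bp (24.8% of all genes), 8 of 10 from 2000 bp (34.1%), 5 of 7 from 3000 bp (40.4%) and 5 of 6 from 4000 bp (57.5%). The only gene under 1000 bp, cki-1, was not marked. Both replicates marked 4 of 10, 8 of 10, 4 of 7 and 5 of 6 of them in the same classes, beside 17%, 24.2%, 30.2% and 50.9% of all genes. Over all bases of the genes and their upstream windows, pooled summits occurred 3.2 times per 10 kb at the cell cycle genes and 1.4 times per 10 kb at all protein-coding genes.

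**Figure D4:**
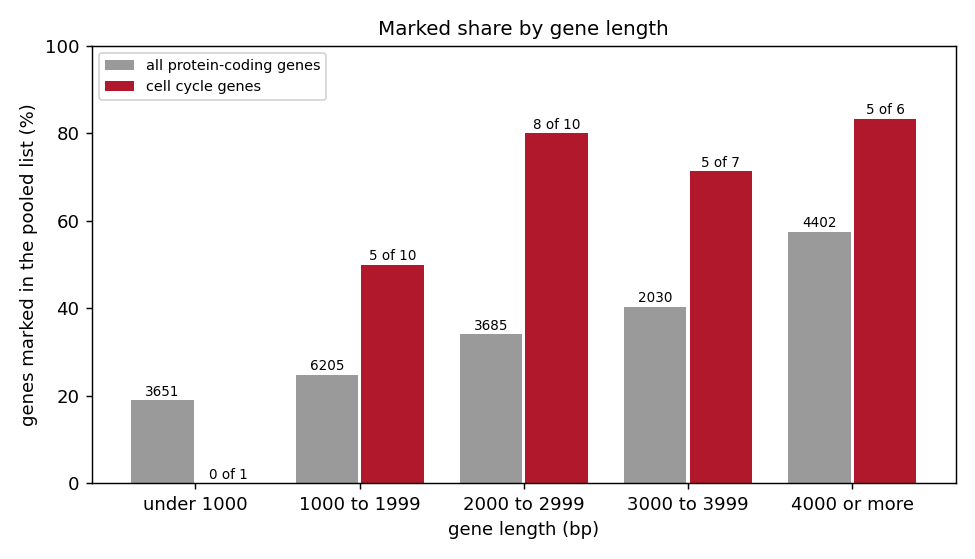
Percent of genes marked in the pooled list (vertical axis, from 0) by gene length in bp (horizontal axis), with all protein-coding genes in grey, their number above each bar, and the cell cycle genes in red, labelled with marked genes of genes in the class. In the 4 classes from 1000 bp the red bars (5 of 10, 8 of 10, 5 of 7 and 5 of 6) stand above the grey ones, which rise from 24.8% to 57.5%.

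The 23 genes marked in the pooled list held 41 of its summits, with 13 genes holding 1 and 10 holding 2 or more. Of the 41, 17 (41.5%) lay in coding exons, 14 (34.1%) in introns and 6 (14.6%) upstream, and these places took up 43.3%, 35.2% and 13.3% of the bases examined at the 34 genes. The summits were thus spread over these places roughly as the bases were, though the upstream share rests on 6 summits. For all protein-coding genes 38.5% of summits lay in coding exons, on 33.2% of bases, and 34.6% in introns, on 46.5% of bases. Upstream windows held 17.3% of their summits, on 13.4% of bases. Small RNA genes lay within 220 bp of 3 of the 41 summits (7.32%), those at cye-1, rnr-1 and air-1. This compares with 4.63% of pooled peaks at all protein-coding genes.

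Most of these peaks overlapped a peak of both replicates, although not at matching ranks. The pooled list was made from the same 2 replicates, so such overlap is partly built in. Of the 41 pooled peaks, 27 (65.9%) overlapped a peak of both replicates, 6 a peak of replicate 1 alone and 8 a peak of replicate 2 alone, while among pooled peaks at all protein-coding genes 47.0% overlapped both. Their median signal was 39.7, against 35.2 for peaks at all protein-coding genes, and their median rank 3849 against 5953. For the 21 genes marked in both replicates, the best ranks correlated with Spearman's rho 0.55, given as a description over genes that share 2 libraries. The strongest peaks of the replicates overlapped in 11 of the 21 genes, and any of their marking peaks overlapped in 19, the exceptions being mcm-6 and pcn-1. These overlaps were not counted for the other genes marked in both replicates, so the counts have no background. The better rank was in replicate 1 for 10 genes and in replicate 2 for 11.

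Base composition and E2F sites were also described, and neither was a criterion in the choice of genes. However, the genes were chosen by function and include S-phase genes, the kind that E2F controls. The share with E2F letters is therefore not independent of the choice. The bodies of the 34 genes had a median GC content of 40.4%, compared with 36.4% for all protein-coding genes, and the 201 bp around their pooled summits had 41.8%, compared with 39.3% for all nuclear pooled peaks. Whether base composition had a part in the marks was not tested. The E2F letters TTTCCCGC, TTTCGCGC, TTTGCCGC and TTTGGCGC, which differ from each other at the middle bases, were sought on both strands in the 300 bp from 250 bp before to 50 bp after each annotated 5' end. They occurred at 14 of the 34 genes (41.2%), 5 helicase genes among them, and at 4.69% of all protein-coding genes. The pooled list marked 9 of the 14 genes with the letters and 14 of the 20 without them. In the 441 bp windows of pooled peaks, the letters were in 7 of 41 at the cell cycle genes (17.1%) and in 7.75% of all. Of the 6 pooled summits upstream of a gene, 4 had the letters in their window, those at cdk-2, wee-1.3, mcm-4 and pcn-1. The share for upstream summits of all genes was not computed, so this count has no background of its own. The internal promoter element of tRNA genes, box B, sought as GTTCNANNC on both strands, was in 5 of the 41 windows (12.2%), against 20.1% of all pooled windows and 62.7% of the reproducible ones, and the cye-1 peak held it. A match of letters is a description and shows no bound site.

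The other genes of these processes were marked about as often as the 34 in the pooled list and in both replicates. Of 130 listed, 125 were found in the annotation, and the pooled list marked 86 of them (68.8%, against 34.3% of all protein-coding genes) and both replicates 79 (63.2%, against 26.1%). By pooled peaks with q under 0.05, 12 of the 125 were marked (9.6%), compared with 2.94% of the 34 and 3.14% of all genes, and in the 1000 strongest pooled peaks also 12 (9.6%), compared with 5.88% and 3.59%. By role, beside the same 34.3% of all genes, the pooled list marked 13 of 22 other cyclins, kinases and regulators, 17 of 27 replisome genes, 17 of 27 kinetochore and checkpoint genes, 10 of 12 cohesin and condensin genes, 12 of 16 genes of the anaphase promoting complex and separase, and 17 of 21 genes of centrosome, spindle and cytokinesis. The reproducible list marked 3 of the 125 (2.4%, against 1.45% of all genes). The condensin gene mix-1 had a peak of rank 64 (II:10840112-10840551, signal 142.4) inside the snoRNA gene M106.6 in its intron, with ranks 215 and 23 in the replicates. The kinesin gene zen-4, which acts in cytokinesis, had a peak of rank 27 (IV:6117675-6118114, signal 167.3) 320 bp upstream and 19 bp from the snoRNA gene M03D4.78, with ranks 25 and 53. At the kinetochore gene knl-3 the peak ranked 410 (V:1868583-1869022, signal 79.8) 410 bp upstream, and the nearest small RNA gene was 21107 bp away. It ranked 1368 in replicate 1 and 344 in replicate 2. Together with cye-1, 3 of these 4 reproducible peaks thus lay at small RNA genes and 1 did not.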

How the data were processed

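ChIP-seq against the GFP tag of MES-4 was measured in 2 biological replicates of 1 group, and nothing further is said of their cultures. Per the deposited file listings, the authors made a relaxed list from each replicate and 1 from both together, each a mix of peaks with background, and kept reproducible peaks by the irreproducible discovery rate. Not given in the sources used here are the aligner, the peak caller, its threshold and how reads with several matches were treated. The signal and the −log10 q value of each peak are the authors' own, as deposited, and the p column held no value. The deposited distance from peak start to summit, in bp, placed the summits. Read depth is unknown, so no interval was computed.

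Coordinates are 1-based on ce11. Genes came from Ensembl release 115 of WBcel235 and sequences from the RefSeq genome of the same assembly. The mitochondrial peaks, the 4 lists on ce10 and the control were left out. The 1087 tRNA, snRNA and snoRNA genes count as small RNA genes. Summits were assigned to genes with Python 3.11.15, numpy 2.4.6 and pandas 2.3.3, coding sequences were aligned with Biopython 1.88 and figures drawn with matplotlib 3.10.9. The assignment was tested on simulated data. No test was made between genes or lists, because 1 group was present and the genes and lists were chosen with earlier results of these data known.

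The genes described in full were those marked in the reproducible list, the 8 of the highest pooled ranks and those marked in 1 replicate alone, and the others are named beside them after their values were seen. Sequences were limited to high-ranked sites outside UTRs and to small RNA genes, and some sites are not shown. Alternatives changed the upstream window to 0 or 1000 bp, took any overlap of the peak, left out peaks at small RNA genes, kept the stronger part after dividing each list in 2 by signal, or took the 5000 strongest peaks of each replicate, required −log10 q of at least 2, or used 1 replicate. The replicates had no identical peak, and since the median peak was 440 bp wide in replicate 1 and 430 bp in replicate 2, this does not bear on whether they are independent.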

Additional observations from a re-analysis of the deposited data

How the results depend on the processing

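Of the 34 cell cycle genes, 1 was marked in the reproducible list (1.45% of all genes). The count was 2 with 1000 bp upstream (1.75% of all genes) and 2 with any overlap of the peak (2.03%), hcp-3 being added to cye-1 in both because its upstream peak was then taken in, and 0 without peaks at small RNA genes, which leaves out the cye-1 peak (0.636%). With the 440 strongest peaks of 1 replicate the count was between 1 (1.52%) and 2 (1.49%), with pcn-1 added when replicate 1 was left out. The pooled count of 23 fell to 1, cye-1, at −log10 q of at least 2, where 1.71% of all genes were marked. Otherwise it ran from 21 to 26, with 21 in the stronger part of the list (20.8% of all genes), 21 for gene bodies alone (29.4%) and 26 by any overlap (38.4%), and from 23 (34.2%) to 25 (34.7%) with 1 replicate. The count of 21 genes marked by both replicates became 11 with the 5000 strongest peaks of each, by construction a shorter list (8.57% of all genes), and ran from 15 in the stronger part of each list (13.2%) to 24 by any overlap (30.1%) in the other settings. No paired analysis was possible because there was 1 group. Most relaxed peaks are weak, so a gene without a mark is one with no listed summit, not one shown to lack MES-4.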
